A study of Homo sapiens with 6 samples.

Results

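Human 786-O cells carrying a short hairpin against IGF2BP2 were compared with control 786-O cells in 6 of the 9 columns of a deposited RNA-seq count table. The hairpin columns carry 2 numbers in their names, and the 3 whose first number is 2, called set 2 here, were set against the 3 columns labelled puro; the 3 hairpin columns whose first number is 3 were left out. All 6 columns come from the same line, grown in RPMI1640 medium with serum, and polyadenylated RNA was sequenced. Set 2 cells have the genotype label shIGF2BP2 and control cells the genotype label puro. What puro stands for, whether control cells held a hairpin of their own, how the hairpin was delivered, whether each arm was a clone or a pool, and what the number 2 means are not stated in the labels. The last number of a column name was read as the replicate number. If the first number named the sample instead, set 2 would be 1 sample with 3 runs, and p-values would measure only technical spread. Since no label speaks of separate cultures within an arm, the spread behind the p-values is that between columns and may be technical under either reading.

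IGF2BP2 encodes a cytoplasmic RNA-binding protein that recognises N6-methyladenosine (m6A), a methyl mark on adenosines of mRNA, and is known for stabilising and aiding the translation of the transcripts it binds. In 786-O, a line from a human kidney tumour of the clear cell type, VHL is not functional. VHL is the ubiquitin ligase subunit that marks hypoxia-inducible factors for destruction, and HIF-2 alpha stays active without it. A short hairpin is cut by the cell into a guide RNA that is loaded into an Argonaute protein and pairs with its target mRNA, and guides of this kind can also pair through their first bases with sites in the 3' UTRs of other transcripts. The sources used here do not give the hairpin sequences.

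Among short words in 3' UTRs, a pair of overlapping words stood out among genes lower in set 2 and another pair among genes higher in it. Their sites in the largest changes are shown because the values below refer back to them. Every word of 7 letters found in the longest annotated 3' UTR of at least 500 tested genes was scanned on the transcript strand alone, which gave 11503 words over 12619 genes (GENCODE v29, GRCh38). GTCATCA, which overlaps TCATCAA by 6 letters, went with the lowest fold changes in set 2, and ACACATC, which overlaps CACATCA by 6 letters, with the highest. These words were picked on the fold changes of set 2 itself and were also known from earlier results of these data, so their sites are a description and no test. In the lines that follow the word is in capitals, each line is the transcript strand read 5' to 3', and the genes are among the 15 largest falls.
MRPL18 (chr6:159798334-159798360, plus strand): atctaagaaaagcaGTCATCAattata
AFAP1L2 (chr10:114295747-114295773, minus strand): tcttttttgaagttGTCATCAattgct
P3H2 (chr3:189957794-189957820, minus strand): acaggttaatgtcaGTCATCAgatctt
TMEM123 (chr11:102398538-102398564, minus strand): agtaattgaaagacGTCATCActgaaa
TMEM123 (chr11:102396821-102396847, minus strand): tttttaagtactaaGTCATCAtttgcc
TXNDC12 (chr1:52020205-52020231, minus strand): agccattttgtcaaGTCATCAactgta

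The next lines hold the word ACACATC, in capitals, in 3' UTRs of genes among the 15 largest rises, on the same build and again on the transcript strand.
PDE6D (chr2:231732595-231732621, minus strand): gggccctacaggctACACATCtacctt
TMCO1 (chr1:165727968-165727994, minus strand): ctttctagacacacACACATCagactg
TMCO1 (chr1:165724669-165724695, minus strand): tgcagttagctgatACACATCctaaat
CHST1 (chr11:45649375-45649401, minus strand): caagcaccacatttACACATCcacaca
MEA1 (chr6:43012399-43012425, minus strand): cagcacaggactgaACACATCcctggt
CENPW (chr6:126348551-126348577, plus strand): taaagacattttttACACATCagttaa
INKA2 (chr1:111724893-111724919, minus strand): gcattgttctccagACACATCtatgga

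IGF2BP2 itself holds GTCATCA once and ACACATC once in its coding sequence, and neither in its 3' UTR. It holds CACATCA once in its coding sequence, overlapping the ACACATC site, and once in its 3' UTR. The coding sites are shown because IGF2BP2 is the transcript the hairpin was made against; whether the hairpin matches them was not tested, since its sequence was not at hand.
IGF2BP2 (chr3:185652115-185652144, minus strand): gtcagcgaaaggatgGTCATCAtcaccggg
IGF2BP2 (chr3:185657314-185657343, minus strand): cgggaagaagggggcACACATCaaacagct

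Set 2 columns summed to between 36830670 and 44298674 counts and puro columns to between 33821216 and 37143673. Within an arm, log2 CPM (counts scaled to a common library size with TMM factors) correlated across genes at 0.991 to 0.993, and between the arms at 0.962 to 0.964. Columns of an arm differed beyond counting error (chi-square per degree of freedom 5.41 to 15.8), so none was counted as a repeat of another. The first principal component took 75.3% of the variance and separated set 2 from puro. Markers of the line were present, with 8 of 8 above 0 and a summed level of 7359 to 7501 CPM (here without TMM scaling) in set 2, against 5572 to 5845 in puro. VIM and KRT8 made up most of the higher sum, whereas CA12 and EPAS1 were lower in set 2. Markers of T cells, B cells and erythroid cells summed to at most 0.434 CPM in set 2 and 0.350 in puro. The macrophage markers summed to 55.2 to 59.5 in set 2, against 32.2 to 34.7 in puro, most of it from CD68, a lysosomal protein, while AIF1 was at 0 in all 6 columns. Fibroblast markers summed to 4.13 to 4.85 CPM in set 2, against 7.23 to 8.94 in puro, endothelial markers to 1.08 to 2.37, against 0.665 to 1.30, and neuronal markers to 6.14 to 7.72, against 4.40 to 5.90.

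The targeted gene IGF2BP2 (chromosome 3, 185643739 to 185825056, minus strand) stood at 25.5, 24 and 23.5 CPM in set 2, against 75.7, 78.3 and 80.6 CPM in puro. The arms did not overlap, and set 2 kept a fraction of 0.311 of the puro level (log2 fold change -1.68, SE 0.07, edgeR quasi-likelihood test, adjusted p = 1.28e-17). In bulk RNA, fewer cells expressing a gene and less RNA of it per cell cannot be told apart. Its paralog IGF2BP3, which binds many of the same RNA motifs, had 96, 90.9 and 103 CPM in set 2, against 70.0, 79.7 and 79.2 CPM in puro and rose by 0.34 on the log2 scale (edgeR adjusted p = 8.13e-05). IGF2BP1, the oncofetal paralog, was close to the detection limit at 0.406 ± 0.191 CPM in set 2 and 0.398 ± 0.115 CPM in puro (SD, n = 3 each), and its log2 fold change of 0.03 did not pass (edgeR adjusted p = 0.961) and took the other sign in 4 of the alternative analyses.

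Across the transcriptome, 8333 of 13138 tested genes differed between set 2 and puro at a false discovery rate (FDR) of 0.05, which is 63.4% of those tested. Of these, 4153 were higher in set 2 (31.6% of tested genes) and 4180 lower (31.8%). A further 6882 listed genes were too low to test, 2570 of them with no count in any of the 6 columns. Most differences were small. The median absolute log2 fold change among called genes was 0.51, or 1.42-fold, and changes of 1.5-fold or more numbered 1804 up and 1635 down. At 2-fold or more, 768 genes were higher (5.85% of tested genes) and 714 lower (5.43%). At 4-fold or more the split turned to 106 higher and 146 lower, and at 8-fold or more to 16 higher and 30 lower. The columns of each arm varied little, with a common coefficient of variation between columns of 6.0% in set 2 and 7.33% in puro. The arms did not overlap for 67% of tested genes. When counts were scaled by plain library totals instead of TMM factors, 5088 genes were higher and 3330 lower, so that 60.4% of calls were higher in place of 49.8%. The median of all genes then stood at 0.10 on the log2 scale.

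**Figure D1:**
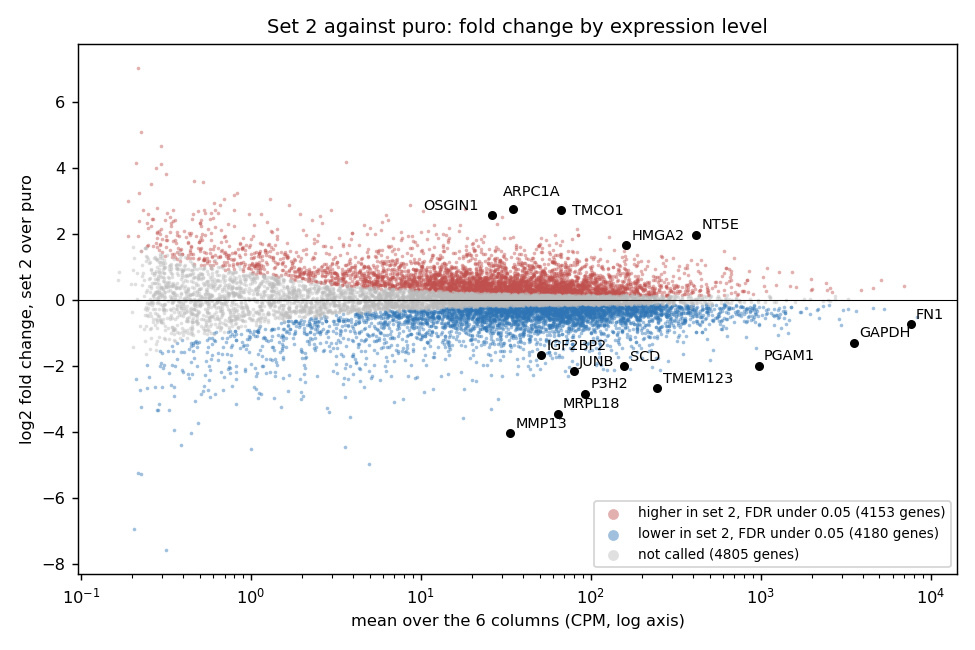
Log2 fold change of set 2 over puro (y axis) against the mean over the 6 columns in CPM (x axis, log scale) for the 13138 tested genes, with genes higher in set 2 in red, genes lower in blue and genes not called in grey. Named genes are black points, and the cloud leans below 0 at the abundant end, where 1276 of the 2628 most abundant genes were lower and 687 higher.

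The response leaned with expression level. Genes were split by level into 5 bins of equal size. In the most abundant bin (mean of at least 89.9 CPM), 48.6% were lower in set 2 and 26.1% higher, with a median log2 fold change of -0.12. In the least abundant bin, 16.1% were lower and 22.6% higher, with a median of 0.12. That bin, with means of at most 4.40 CPM, nonetheless held 363 of the 768 rises and 274 of the 714 falls of at least 2-fold. The most abundant bin held 52 and 102 of them. The lean with gene length was smaller: of the shortest of 5 bins 34.5% were lower and 24% higher, against 31.3% and 35.7% of the longest. The medians of chromosomes 1 to 22 and X lay between -0.071 (chromosome 18) and 0.042 (chromosome 16). Chromosome 18 had 40.6% of its genes lower and 26.3% higher, and chromosome 21 had 38% lower and 26.9% higher, the most lower and the fewest higher of these chromosomes. Abundant transcripts that fell, chosen after their values were seen, include FN1 (fibronectin, 5694 ± 377 CPM in set 2 and 9549.8 ± 327 CPM in puro), GAPDH (a glycolytic enzyme, 2045 ± 113 CPM in set 2 and 5051 ± 233 CPM in puro) and EEF1A1 (an elongation factor, 6879.6 ± 590.4 CPM in set 2 and 9859 ± 543 CPM in puro), each as mean ± SD over 3 columns. Abundant transcripts that rose, chosen in the same way, include AHNAK (a giant scaffold protein, 6171 ± 321 CPM in set 2 and 4086 ± 355 CPM in puro), CD44 (the hyaluronan receptor, 1450.0 ± 19.1 CPM in set 2 and 741 ± 44.5 CPM in puro), APP (the amyloid precursor protein, 979.5 ± 50.4 CPM in set 2 and 406 ± 10.0 CPM in puro) and CAPN2 (a calpain protease, 889.8 ± 9.80 CPM in set 2 and 319 ± 6.09 CPM in puro).

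The 15 largest falls and 15 largest rises were taken from called genes that averaged 5 CPM or more and whose arms did not overlap. Their separation is thus a condition of the choice. Members named under the lists below were taken from called genes that averaged 5 CPM or more, with no condition on overlap. MMP13, a collagenase, had 2.91, 4.33 and 4.17 CPM in set 2, against 56.8, 72 and 60.8 CPM in puro (log2 fold change -4.05, SE 0.12, edgeR adjusted p = 9.37e-21). ELF3, an epithelial transcription factor, had 4.84, 5.42 and 3.88 CPM in set 2, against 52.8, 44.6 and 44.2 CPM in puro (log2 -3.32). MRPL18, a protein of the large mitochondrial ribosomal subunit whose 3' UTR site is shown above, had 10.6, 9.51 and 12 CPM in set 2, against 119, 112 and 120.0 CPM in puro (log2 -3.45, SE 0.08, edgeR adjusted p = 1.57e-22). In each of these genes the set 2 columns lay far below the lowest puro column. P3H2, which hydroxylates collagen prolines, had 21.3, 23.9 and 22.4 CPM in set 2, against 160.4, 163 and 161 CPM in puro (log2 -2.84). TMEM123, a membrane glycoprotein with a pair of the sites shown, had 65, 65.7 and 67.4 CPM in set 2, against 397, 455 and 424 CPM in puro (log2 -2.69). TXNDC12, a thioredoxin of the endoplasmic reticulum, had 2.02, 1.42 and 1.95 CPM in set 2, against 9.79, 10.5 and 8.75 CPM in puro (log2 -2.43). AFAP1L2, an adaptor of Src signalling, had 1.66, 1.18 and 1.58 CPM in set 2, against 12.3, 12.1 and 13 CPM in puro (log2 -3.09). MRPL18, P3H2, TMEM123, TXNDC12 and AFAP1L2 hold GTCATCA in the 3' UTR, PREX2 holds TCATCAA, and the other 9 of the 15 falls hold neither.

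The other large falls were of MAP7D2, a microtubule-associated protein (log2 -3.58), PREX2, an activator of Rac GTPases (-3.02), MAB21L3 (-3.01), VGF, a secreted neuroendocrine precursor (-2.80), ACKR3, a scavenging receptor for the chemokine CXCL12 (-2.72), FGFR4, a fibroblast growth factor receptor (-2.71), CHPT1, an enzyme of phosphatidylcholine synthesis (-2.46), and PDZK1, a scaffold for transporters of the renal brush border (-2.43). PDZK1 had 6.87, 6.63 and 5.36 CPM in set 2, against 31.9, 36.3 and 33.7 CPM in puro. FGFR4 had 3.53, 5.18 and 5.54 CPM in set 2, against 32.4, 29.6 and 31.6 CPM in puro. All 15 falls kept their call in all 19 of the other analyses run on them.

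Among the rises, TMCO1, a calcium channel of the endoplasmic reticulum, had 109, 119 and 121 CPM in set 2, against 16.8, 17.4 and 18.7 CPM in puro, a 6.60-fold rise (edgeR adjusted p = 3.32e-21). ARPC1A, part of the Arp2/3 complex that nucleates branched actin, had 55.4, 64.9 and 62.9 CPM in set 2, against 9.96, 8.25 and 8.84 CPM in puro, a 6.76-fold rise. PDE6D, which carries prenylated proteins, had 28.3, 33 and 33.3 CPM in set 2, against 5.13, 4.43 and 4.49 CPM in puro, a 6.72-fold rise. OSGIN1, a growth inhibitor induced by oxidative stress, had 45.7, 44.2 and 44.5 CPM in set 2, against 8.21, 6.05 and 8.41 CPM in puro, a 5.91-fold rise. In all of these genes even the lowest set 2 column exceeded the highest puro column by more than 5-fold. MEA1 had 48.8, 51.2 and 53.4 CPM in set 2, against 9.21, 9.14 and 8.60 CPM in puro. CENPW, a centromere protein, had 43.4, 47.8 and 49.4 CPM in set 2, against 9.85, 9.63 and 9.29 CPM in puro. CHST1, a keratan sulfate sulfotransferase, had 18.2, 19.3 and 16.3 CPM in set 2, against 3.25, 2.96 and 2.11 CPM in puro. INKA2, an inhibitor of the kinase PAK4, had 9.66, 6.84 and 8.37 CPM in set 2, against 1.83, 1.44 and 2.20 CPM in puro. Besides TMCO1, PDE6D, MEA1, CENPW, CHST1 and INKA2, none of the 14 largest rises with an annotated 3' UTR holds ACACATC or CACATCA; TMCO1 also holds a word of the lower pair.

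KRTAP2-3, a hair keratin-associated protein, had the largest fold of the 15 rises at 7.34, but its level was low (15.5, 15.3 and 14.6 CPM in set 2, against 2.86, 1.53 and 1.75 CPM in puro) and close copies of it exist in the genome. FBXW10 and FBXW10B, near-identical F-box genes whose reads cannot be told apart with certainty, rose by 5.39-fold and 5.97-fold. The remaining large rises were of RFX8, a member of the RFX transcription factor family (5.09-fold), MPP4, a scaffold protein of photoreceptors (4.81-fold), WNK4, a kinase that governs renal salt transport (4.80-fold), and ARHGDIB (4.51-fold).

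**Figure D2:**
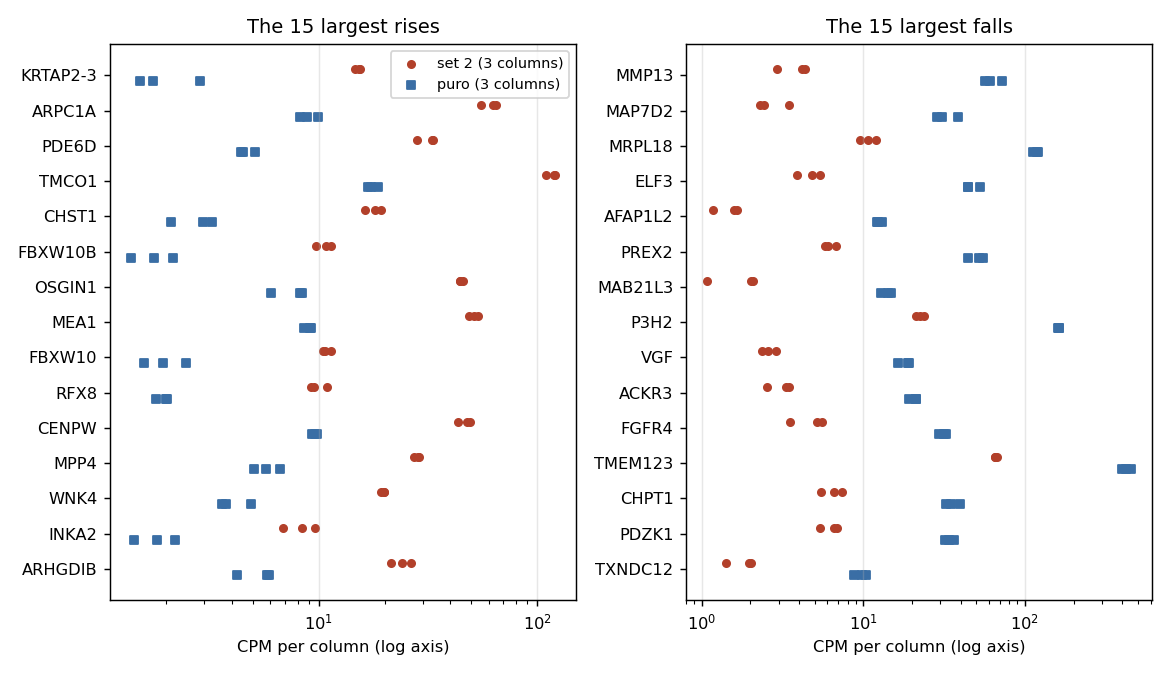
CPM in each column (x axes, log scale) for the 15 largest rises (left panel) and the 15 largest falls (right panel), 1 gene a row, with set 2 as red circles and puro as blue squares, 3 points each. The points of an arm lie close together and the arms do not overlap in any row, which the choice of these genes required.

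Over all searched genes, 1234 held GTCATCA in the 3' UTR, and their mean log2 fold change minus that of the other genes was -0.298. TCATCAA followed at -0.177 (1389 genes). At the other end, ACACATC gave a difference of 0.246 (1269 genes) and CACATCA of 0.208 (1472 genes). The middle 90% of the 11503 words lay between -0.022 and 0.048. The size of the shift followed how much of the joined 8-letter word a 3' UTR held. As the words were picked on these same fold changes, the shifts here and in the next paragraphs are a description and no test. The 317 genes with all 8 letters of the lower pair had a median log2 fold change of -0.34, and 51.7% were called lower, against 30.1% of the 8329 genes that held not even the inner 6 letters (median 0.02). The 917 genes with GTCATCA but not the joined 8 letters had a median of -0.19 with 47.8% lower. Some of these also hold TCATCAA elsewhere in the 3' UTR. The 891 with TCATCAA and no GTCATCA had a median of -0.03 with 36.1% lower. The 2165 genes with only the inner 6 letters stood at 0.04 and 29.7%, close to the genes with none.

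The upper pair went with the opposite direction. The 458 genes with all 8 letters of ACACATC joined to CACATCA had a median of 0.27, and 51.3% were called higher, against 28% of the 8815 genes with none of it (median -0.04). ACACATC without the joined 8 letters (811 genes, some also with CACATCA elsewhere) gave a median of 0.19 with 46.5% higher. CACATCA without ACACATC (870 genes) gave a median of 0.11 with 40.6% higher. Genes holding these words have longer 3' UTRs, with a median of 3284 bases for the 8-letter upper class and 934 bases for genes with none, so the shares were also taken within 5 bins of 3' UTR length. In the middle bin, 53% of genes with a word of the lower pair were called lower, against 31.0% of the others. In the same bin, 47.0% of genes with a word of the upper pair were called higher, against 29.5% of the others, and the direction was the same in each of the 5 bins for both pairs. Shifts also went with the words in coding sequence, only a little weaker than in the 3' UTR for the lower pair. Of the 2816 genes holding a lower word there and not in the 3' UTR, 39.1% were lower (median -0.11). The share was 43.5% of the 2125 with one in the 3' UTR (median -0.13) and 26.7% of 7678 with one in neither (median 0.07). Of the 1880 genes holding an upper word in coding sequence and not in the 3' UTR, 35.6% were higher (median 0.06). The share was 45.1% of the 2139 with one in the 3' UTR (median 0.17) and 27.5% of 8600 with one in neither (median -0.05). The coding shares were not taken within bins of length.

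**Figure D3:**
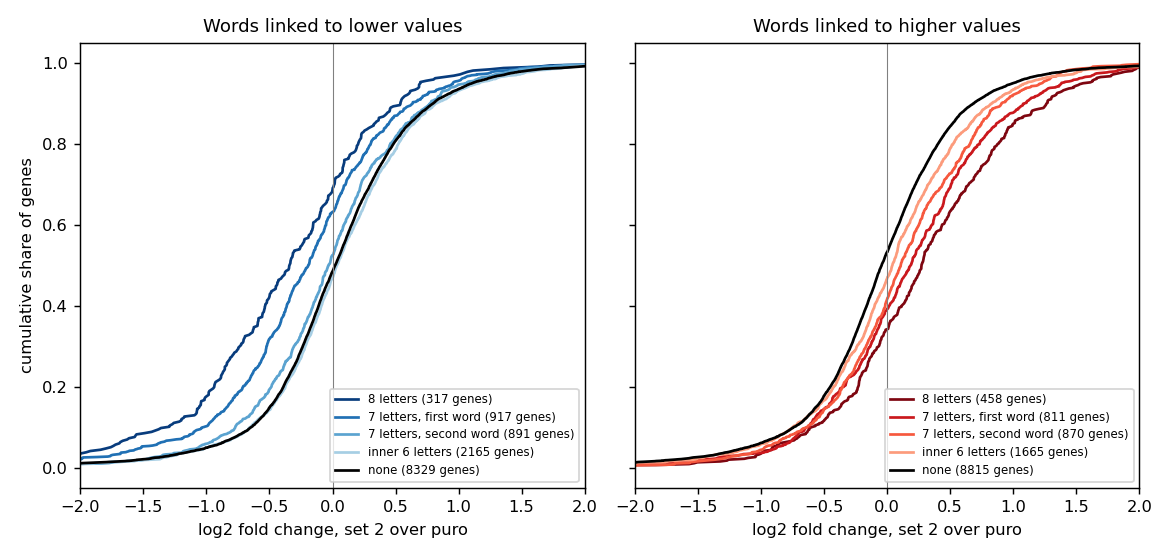
Cumulative share of genes (y axis) by log2 fold change of set 2 over puro (x axis), grouped by how much of the lower 8-letter word (left) or the upper one (right) the 3' UTR holds. The 8-letter curves lie farthest from the black curve of genes with none, to the left for the lower word (median -0.34 in 317 genes) and to the right for the upper word (median 0.27 in 458 genes).

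Of the 688 falls of at least 2-fold with an annotated 3' UTR, 197 (28.6%) hold a word of the lower pair, as do 16.8% of all searched genes. Of the 730 rises of at least 2-fold, 233 (31.9%) hold a word of the upper pair, as do 17% of all. Most changes of that size lie in genes whose 3' UTR holds no word of the matching pair. With every gene that holds any of the 4 words set aside, a count added after the data were seen, 5857 of the remaining 9564 genes were called, 2887 higher and 2970 lower. The remaining genes include those with no annotated 3' UTR, which could not be searched. For many of the gene groups below, falls are also counted among members searched and found without a lower word. Rises are likewise counted in places among members without an upper word. In the 5 bins of 3' UTR length, 26.4% to 32.4% of all searched genes without a lower word were called lower. Of those without an upper word, 25.3% to 32.8% were called higher.

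Genes of the protein synthesis apparatus were lower in set 2. Here and in the lists below, counts are to be read beside the shares over all tested genes, 31.6% higher and 31.8% lower. Of 80 tested cytosolic ribosomal proteins, 70 fell and 1 rose (87.5% lower, against 31.8% of all tested genes), with a median log2 fold change of -0.40. RPL19 had 471, 546 and 533 CPM in set 2, against 1132, 1093 and 1134 CPM in puro (log2 -1.12). RPL4 had 757, 841 and 851 CPM in set 2, against 1672, 1694 and 1807 CPM in puro (log2 -1.08); both encode proteins of the large subunit, and in neither do the arms come near each other. RPL23A followed at -0.87. The member that rose was RPLP2, a stalk protein, with 449, 489.8 and 476 CPM in set 2, against 316, 248 and 272 CPM in puro, and its 3' UTR holds a word of the upper pair. Of the 77 members without a lower word, 68 fell. The list summed to 43269 to 51317 CPM in set 2, against 60151 to 68148 CPM in puro. With library totals its median was -0.30, with 63 falls and 2 rises. These genes have many near-copies in the genome and belong to the abundant end of the transcriptome, where falls were more frequent; the part of either in the result was not tested.

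Ribosome biogenesis factors fell in 33 of 45 tested members and rose in 3, with a median of -0.38, and 30 of 40 without a lower word fell. NPM1, the nucleolar phosphoprotein, had 890.4, 993 and 999 CPM in set 2, against 1899, 1929 and 1996 CPM in puro (log2 -1.01). TSR1, a maturation factor of the small subunit, had 85.9 ± 3.60 CPM in set 2 and 160.0 ± 2.25 CPM in puro (SD, n = 3 each). NOB1, the nuclease that trims small-subunit rRNA, had 60.0 ± 1.86 CPM in set 2 and 110.0 ± 1.55 CPM in puro (SD, n = 3 each). UTP4, a factor of small-subunit assembly, rose by 0.74 and UBTF, an rRNA transcription factor, by 0.41, and both hold an upper word. Among 49 translation factors 27 fell and 9 rose (median -0.16), and 23 of 42 without a lower word fell. With library totals 19 fell and 14 rose (median -0.06). EEF1A2, an elongation factor isoform, had 48.1, 44.7 and 41.9 CPM in set 2, against 205, 174 and 195 CPM in puro (log2 -2.09), while EIF4H, a helicase cofactor, rose by 0.78. Aminoacyl-tRNA synthetases gave 11 falls and 2 rises among 20 (median -0.14), WARS1, YARS1 and KARS1 changing by -0.76, -0.68 and -0.67. With library totals 7 of them fell and 3 rose (median -0.04). In mitochondria, 45 of 76 ribosomal proteins fell and 6 rose (median -0.22), against 33 and 11 with library totals (median -0.12). MRPL18 led these falls; MRPS28 (-1.48) and MRPL9 (-1.04) also hold a lower word, and 39 of the 68 members without one fell.

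Protein folding and turnover genes leaned the same way. Of 46 chaperones and cochaperones 35 fell and 6 rose (median -0.40), and 31 of 42 without a lower word fell. FKBP4, a cochaperone of HSP90, had 90.3, 87.4 and 91 CPM in set 2, against 358, 354 and 386 CPM in puro (log2 -2.03), HSPA4L, a nucleotide exchange factor of HSP70, changed by -1.11, and HSPB8 and DNAJB6, which hold back aggregation, rose by 1.00 and 0.83. Among 39 proteasome subunits and assembly factors 18 fell and 3 rose (median -0.13), PSMC4 at -0.81 and PSMA4 at 0.52. With library totals 12 of these fell and 4 rose (median -0.03). Splicing factors fell in 38 of 65 members and rose in 9 (median -0.23), and 33 of 57 without a lower word fell. PTBP3, a polypyrimidine tract-binding protein with a lower word, had 125, 122 and 123 CPM in set 2, against 409, 479.8 and 454 CPM in puro (log2 -1.86), and HNRNPUL1, also with one, changed by -1.26. HNRNPD, a regulator of AU-rich mRNAs without one, changed by -0.97, and the splicing regulator RBFOX2 rose by 0.52.

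**Figure D4:**
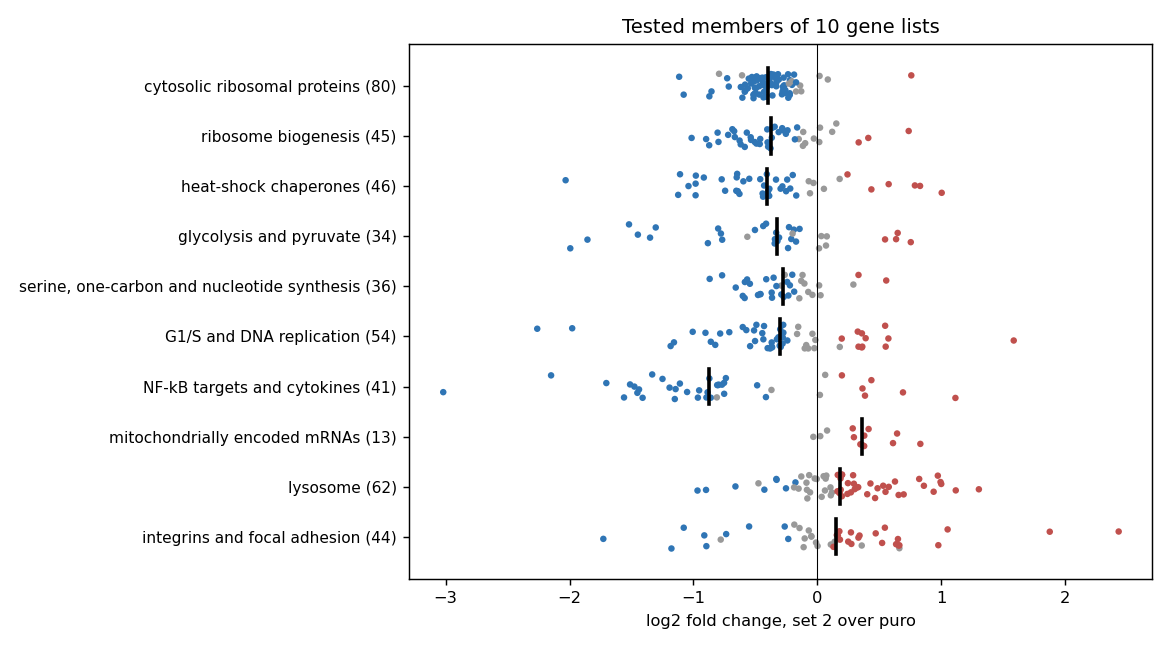
Log2 fold change of set 2 over puro (x axis) for every tested member of 10 gene lists (rows, with the number of members), blue where lower, red where higher and grey where not called, with the median of the list as a black bar. The bars of the first 7 lists lie below 0, down to -0.87 for NF-kB targets and cytokines, and those of the last 3 above 0.

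Genes of glycolysis fell at many steps. Of 34 tested genes of glycolysis and pyruvate handling, 24 fell and 4 rose (median -0.33), and 21 of 29 without a lower word fell. PGAM1, phosphoglycerate mutase, whose 3' UTR holds a lower word, had 385, 382 and 401 CPM in set 2, against 1605, 1505 and 1546 CPM in puro (log2 -1.99). GAPDH had 1915, 2115 and 2105 CPM in set 2, against 5157, 4784 and 5212 CPM in puro (log2 -1.30). ENO1, the enolase, had 2126, 2192 and 2247 CPM in set 2, against 3739, 3579.6 and 3862 CPM in puro (log2 -0.77), and GAPDH and ENO1, named after their values were seen, are among the most abundant mRNAs of the line. PFKFB3 and PFKFB4, kinases that make the activator of phosphofructokinase, changed by -1.35 and -1.52, and LDHB, a lactate dehydrogenase chain, by -1.86, though puro columns of LDHB spread from 99.2 to 153 CPM. The glucose transporter SLC2A3, the lactate transporter SLC16A1 and TIGAR, which lowers glycolytic flux, rose by 0.65, 0.64 and 0.75. The summed level of the list was 15547 to 16192 CPM in set 2, against 24263 to 25605 CPM in puro.

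Mitochondrially encoded mRNAs rose, whereas nuclear genes of the respiratory chain fell more often than they rose. Of 13 mitochondrially encoded mRNAs 10 rose and 0 fell (median 0.36, with 12 rises under library totals). MT-CYB, a subunit of complex III, had 1946, 2017 and 1920.5 CPM in set 2, against 1114, 1117 and 1077 CPM in puro (log2 0.83). MT-ATP6, of the ATP synthase, had 2313, 2488 and 2421 CPM in set 2, against 1631, 1574 and 1419.7 CPM in puro (log2 0.64). Nuclear copies of mitochondrial genes make their counts less certain. They took 3.13 to 3.29% of counts in set 2, against 2.26 to 2.40% in puro. Of 76 nuclear genes of oxidative phosphorylation 34 fell and 6 rose (median -0.15), among them SDHC of complex II (-0.67) and NDUFS8 of complex I (-0.56), while UQCRC2 of complex III rose by 0.95. Of the 66 nuclear members without a lower word 29 fell. With library totals 18 of the 76 fell and 11 rose (median -0.05), and on log2(FPKM + 1) 15 fell and 10 rose. Serine, one-carbon and nucleotide synthesis gave 23 falls and 2 rises among 36 (median -0.28), 21 of the falls among 31 members without a lower word, with AHCY, which recycles methionine, at 132 ± 3.17 CPM in set 2 and 241 ± 13.1 CPM in puro (SD, n = 3 each).

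DNA replication genes fell more often than they rose, 34 of 54 against 11, with a median of -0.30, and 32 of 50 without a lower word fell. CCNE1, cyclin E1, had 4.47, 4.96 and 5.49 CPM in set 2, against 24.3, 23.5 and 23.7 CPM in puro (log2 -2.26). RPA1, the large subunit of the single-strand binding complex, had 104, 102 and 106 CPM in set 2, against 235, 235 and 239 CPM in puro (log2 -1.18) and is 1 of 4 members of the list that hold a lower word. The atypical E2F repressors went apart. E2F8 had 9.21, 9.71 and 9.40 CPM in set 2, against 37.4, 39 and 35.3 CPM in puro (log2 -1.98). E2F7 had 256, 228 and 247 CPM in set 2, against 79.9, 86.9 and 76.9 CPM in puro (log2 1.58). Mitotic genes rose in 20 of 57 members and fell in 17 (35.1% and 29.8%, near the shares over all tested genes, median 0.03). With library totals 27 rose and 14 fell (median 0.13). CENPE and CENPF, kinetochore-associated proteins, rose by 0.55 and 0.52. CDC25A, a phosphatase that activates CDKs, and KIF4A, a chromosome motor, changed by -1.03 and -0.83. Among 15 D cyclins, CDKs and their inhibitors 7 rose and 5 fell (median 0.09). CCND1, cyclin D1 and a proposed IGF2BP target, had 881, 833 and 839 CPM in set 2, against 467, 461 and 414 CPM in puro (log2 0.93), CCND3 rose by 1.15, the inhibitor CDKN1B by 1.05, and CDK4 changed by -0.98. DNA repair genes gave 26 falls and 13 rises among 67, PARP1, which senses strand breaks, having 139 ± 3.95 CPM in set 2 and 296 ± 2.32 CPM in puro (SD, n = 3 each); with library totals 19 fell and 19 rose, and their median of -0.06 became 0.04.

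NF-kB targets and cytokines fell in 31 of 41 tested members and rose in 6 (75.6% lower), with a median of -0.87 and 16 falls of at least 2-fold, the lowest median of the 48 lists. TNFRSF9, a costimulatory receptor, had 23.9, 26.2 and 27.6 CPM in set 2, against 107, 118 and 119 CPM in puro (log2 -2.15). IL6, an inflammatory cytokine, had 15.9, 14.4 and 15 CPM in set 2, against 41.9, 46.2 and 45.7 CPM in puro (log2 -1.56). SOD2, the mitochondrial superoxide dismutase, had 113, 119 and 121 CPM in set 2, against 323, 345 and 339.7 CPM in puro (log2 -1.51). No puro column of these genes came within the set 2 range. IL11, a cytokine of the IL6 family, rose by 0.69, CSF1, the macrophage growth factor, by 0.44, and BIRC3, an inhibitor of apoptosis, by 0.38. Few members hold a lower word (5 of 41), and 28 of the 36 without one fell. With library totals the median was -0.77.

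Among immediate early factors, JUNB and JUND fell, whereas FOSL1 and KLF6 rose. JUNB, an AP-1 subunit, had 28, 29.8 and 28.6 CPM in set 2, against 134, 119.8 and 137 CPM in puro (log2 -2.17). JUND had 21.7, 22.6 and 20.7 CPM in set 2, against 69.7, 58.2 and 65.8 CPM in puro (log2 -1.58). FOSL1, a partner of the JUN proteins, had 549, 549 and 522 CPM in set 2, against 364, 335 and 339.8 CPM in puro (log2 0.64). KLF6, a zinc finger factor, had 466, 426 and 439.6 CPM in set 2, against 213, 228 and 213 CPM in puro (log2 1.03). Over the 29 tested members 13 fell and 7 rose (median -0.37). Feedback regulators of ERK signalling gave 11 rises and 7 falls among 25 (median 0.08). PHLDA1 rose by 1.11 and SPRY4, an inhibitor of receptor signalling, by 1.13, while the MAP kinase phosphatases DUSP5 and DUSP8 changed by -1.25 and -1.99. Receptor tyrosine kinases and their ligands gave 21 rises and 14 falls among 52 (median 0.07), with the growth factor PDGFB at 48.3, 49 and 42.5 CPM in set 2, against 190.1, 173 and 189 CPM in puro (log2 -1.98) and IGFBP7, an IGF-binding protein, higher by 1.30.

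The TGF-beta pathway, which the series title names, signals from secreted ligands through paired receptor kinases to SMAD2 and SMAD3, which act with SMAD4 in the nucleus and are held back by SMAD7. Its ligands TGFB1 and TGFB2 rose. TGFB1 had 112, 114 and 107 CPM in set 2, against 78.5, 66.8 and 70.9 CPM in puro (log2 0.62). TGFB2 had 134, 132 and 126 CPM in set 2, against 66.5, 70.4 and 71.8 CPM in puro (log2 0.91). The type II receptor TGFBR2 had 175, 164 and 175 CPM in set 2, against 234, 256 and 228 CPM in puro (log2 -0.48), and the type I receptor TGFBR1 had 29.5, 27.7 and 29 CPM in set 2, against 30.1, 34 and 35.4 CPM in puro (log2 -0.21, edgeR adjusted p = 0.0242), a call lost in 8 of 19 other analyses. SMAD2, SMAD3 and SMAD7 fell by 0.32, 0.30 and 0.58 on the log2 scale, the call of SMAD2 being lost in 2 of 19 other analyses, where its change was -0.13 and -0.21. SMAD4 had 43.8, 44.3 and 43.3 CPM in set 2, against 46.6, 54.1 and 48.2 CPM in puro (log2 -0.18, edgeR adjusted p = 0.028), a call lost in 9 of 19. LTBP1, which holds latent TGF-beta in the matrix, had 4.63 ± 0.268 CPM in set 2 and 12 ± 0.649 CPM in puro (SD, n = 3 each). NOG, an antagonist of BMPs, had 19 ± 2.23 CPM in set 2 and 7.68 ± 1.06 CPM in puro, and SKI, a SMAD corepressor, had 81.8 ± 4.16 CPM in set 2 and 36 ± 3.83 CPM in puro, with the same error and n. Over 46 ligands, receptors and SMADs 23 fell and 11 rose (median -0.19); with library totals 18 fell and 13 rose (median -0.09).

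Among 38 genes known to be induced by TGF-beta 21 fell and 10 rose (median -0.21). HMGA2, a chromatin factor and proposed IGF2BP target, had 244, 243 and 247 CPM in set 2, against 75.7, 83.3 and 73.4 CPM in puro (log2 1.66), and its 3' UTR holds words of both pairs. The matricellular proteins CCN2 and CCN1 went apart. CCN2 had 34.2, 30.9 and 27.6 CPM in set 2, against 15.6, 12.9 and 14.4 CPM in puro (log2 1.11). CCN1 had 324, 298 and 294 CPM in set 2, against 616, 563 and 619 CPM in puro (log2 -0.97). MYC, another proposed IGF2BP target, had 80.6, 82.6 and 76.8 CPM in set 2, against 104, 103 and 108 CPM in puro (log2 -0.39).

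In the HIF pathway, EPAS1, which encodes HIF-2 alpha, had 175, 169.6 and 169 CPM in set 2, against 219, 225 and 218 CPM in puro (log2 -0.37). VEGFA, an angiogenic growth factor and HIF target, had 794, 762 and 765 CPM in set 2, against 539.8, 549 and 489 CPM in puro (log2 0.56). VHL mRNA, whose product is not functional in this line, had 147, 142 and 143 CPM in set 2, against 56.2, 64.5 and 61.5 CPM in puro (log2 1.25), and its 3' UTR holds an upper word. IGFBP3, an IGF-binding protein, had 209, 232 and 216 CPM in set 2, against 804, 768 and 779 CPM in puro (log2 -1.84). Of 41 pathway genes and targets 16 fell and 12 rose (median -0.04), against 15 falls and 16 rises with library totals (median 0.06).

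Matrix and adhesion genes moved in both directions, as did tested genes at large (31.6% higher and 31.8% lower). Of 45 matrix proteases and inhibitors 21 rose and 14 fell (46.7% and 31.1%, median 0.19). MMP1, an interstitial collagenase, had 2.91, 2.45 and 3.06 CPM in set 2, against 13.6, 13.3 and 14.7 CPM in puro (log2 -2.31) and fell with MMP13, whereas MMP15, a membrane-anchored protease, had 13.6, 12.1 and 10.8 CPM in set 2, against 2.33, 3.85 and 3.74 CPM in puro (log2 1.89). ADAMTS5, an aggrecanase, had 92, 83.1 and 92.3 CPM in set 2, against 30.1, 31.4 and 32.8 CPM in puro (log2 1.5). Integrins and focal adhesion genes rose in 21 of 44 members and fell in 9 (median 0.15). ITGA2, a collagen receptor chain, had 80.9, 76.1 and 84.4 CPM in set 2, against 18.9, 24.8 and 22.1 CPM in puro (log2 1.87). VCL, vinculin, had 641, 624 and 641 CPM in set 2, against 298, 319 and 303 CPM in puro (log2 1.05). ITGB3, a chain of the vitronectin receptor, had 71.8, 66.3 and 64.6 CPM in set 2, against 207, 237 and 227 CPM in puro (log2 -1.73). Collagens, laminins and other matrix genes gave 21 falls and 13 rises among 52 (median -0.04), against 17 falls and 19 rises with library totals (median 0.06); the transmembrane collagens COL13A1 and COL17A1 rose by 1.87 and 1.75, and the laminin chain LAMA5 changed by -1.34. NT5E, the ecto-nucleotidase that makes adenosine, had 655, 647 and 688 CPM in set 2, against 153, 181 and 172 CPM in puro (log2 1.98). It is on the list of YAP and TEAD genes, of which 13 rose and 15 fell among 37 (median -0.05), against 15 rises and 13 falls with library totals (median 0.05).

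Actin genes gave 24 falls and 11 rises among 51 (median -0.15), against 19 falls and 15 rises with library totals (median -0.05). ARPC1A led the rises. Among called members averaging at least 5 CPM, WASF2, a subunit of the complex that activates Arp2/3, came next at 0.78. CFL2, a cofilin that severs filaments and whose 3' UTR holds a lower word, had 35.6, 32.8 and 34.1 CPM in set 2, against 119.6, 138 and 139 CPM in puro (log2 -1.95). MYH10, a non-muscle myosin chain, had 48.6, 50.5 and 46.5 CPM in set 2, against 126, 145 and 138 CPM in puro (log2 -1.49). Epithelial junction and keratin genes fell in 19 of 43 members, 11 of them by at least 2-fold, and rose in 11 (median -0.18). Their summed level was nonetheless higher, at 9265 to 9478 CPM in set 2, against 8239 to 8535 CPM in puro. Besides ELF3, KRT80, a keratin, had 63.9, 56.5 and 54 CPM in set 2, against 157, 159 and 177 CPM in puro (log2 -1.5). CLDN4, a tight junction claudin, changed by -1.37, and CLDN2, a pore-forming claudin, rose by 1.08. The more abundant keratins KRT8 and KRT18, markers of the line, were higher in set 2. Without TMM scaling, KRT8 had 854 to 907 CPM in set 2, against 559 to 600 in puro, and KRT18 254 to 270, against 162 to 178.

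Lysosomal genes were the list with the largest share of rises outside the mitochondrial genome, 35 of 62 rising and 8 falling (56.5% higher, against 31.6% of all tested genes; median 0.18). LAMP2, a membrane protein of lysosomes, had 376, 371 and 382 CPM in set 2, against 149, 163 and 146 CPM in puro (log2 1.30). SMPD1, acid sphingomyelinase, had 43.7, 43.4 and 40.4 CPM in set 2, against 19.6, 19.3 and 19.8 CPM in puro (log2 1.12). NPC2, a carrier of cholesterol, had 119.9, 140.3 and 135 CPM in set 2, against 71.2, 61.6 and 64.9 CPM in puro (log2 1.00). Of the 53 members without an upper word, 30 rose. MITF, a transcription factor of lysosomal genes, and IDS, a sulfatase, changed by -0.90 and -0.97, and both hold a lower word. CD68, the lysosomal protein noted above among the macrophage markers, was also higher in set 2. Of the other macrophage markers CSF1R stood at 9.17 to 12.0 CPM in set 2, against 7.23 to 9.96 in puro. CD14 stood at 0.09 to 0.567 CPM in set 2, against 0.087 to 0.444 in puro, and AIF1 was at 0. The part of macrophages in the lysosomal rises was not tested. Autophagy genes rose in 15 of 38 members and fell in 14 (median 0.08), against 18 rises and 9 falls with library totals (median 0.18). ATG16L1, a conjugation factor of autophagosomes, had 153, 147 and 151 CPM in set 2, against 72.1, 74.2 and 68.8 CPM in puro (log2 1.07), and WIPI1, an early autophagosome protein, rose by 2.00.

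Lipid, redox and transport genes also held large single changes. SCD, the desaturase that makes oleate and whose 3' UTR holds a lower word, had 66.2, 61.3 and 59.3 CPM in set 2, against 236, 259 and 262 CPM in puro (log2 -2.02). FASN, fatty acid synthase, had 166, 162 and 158 CPM in set 2, against 294, 261 and 279 CPM in puro (log2 -0.78). PPARD, a nuclear receptor for fatty acids, had 65.6, 66 and 61.1 CPM in set 2, against 27.2, 26.4 and 26.8 CPM in puro (log2 1.26), and of 47 fatty acid and lipid droplet genes 20 rose and 16 fell (median 0.12), against 22 rises and 9 falls with library totals. Cholesterol genes gave 15 falls and 12 rises among 33 (median -0.14), a lean that turned to 12 falls and 15 rises with library totals (median -0.04), with SREBF1, a sterol-regulated factor, at -1.01 and STARD4, a sterol carrier, at 1.22. The NRF2, glutathione and iron list gave 27 falls and 13 rises among 49 (median -0.18). Here HMOX1, haem oxygenase, had 35, 39.3 and 38.4 CPM in set 2, against 14.6, 10.6 and 13.4 CPM in puro (log2 1.55). AKR1B1, aldose reductase, had 491, 515 and 507 CPM in set 2, against 1409, 1344 and 1402 CPM in puro (log2 -1.46). GSR, glutathione reductase, had 20.3, 21.8 and 19.5 CPM in set 2, against 53.2, 59.1 and 50.2 CPM in puro (log2 -1.40). Of 40 carriers of sugars, amino acids and monocarboxylates 22 fell and 10 rose (median -0.32). SLC7A11, which brings in cystine for glutathione synthesis and holds an upper word, had 56.8, 52.1 and 56.5 CPM in set 2, against 16.9, 18.7 and 17.2 CPM in puro (log2 1.65). SLC7A5, a carrier of large neutral amino acids, had 286, 271 and 257 CPM in set 2, against 792, 769.8 and 764 CPM in puro (log2 -1.51).

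In the m6A machinery itself, 10 of 27 genes fell, IGF2BP2 among them, and 8 rose, with a median of -0.09 that turned to 0.01 under library totals. CBLL1, an accessory protein of the writer complex, had 54, 52.2 and 51.2 CPM in set 2, against 24.6, 25.3 and 25.2 CPM in puro (log2 1.07), and the demethylases FTO and ALKBH5 went apart. FTO had 49.4, 45.1 and 44.5 CPM in set 2, against 24.5, 27.5 and 29.5 CPM in puro (log2 0.77). ALKBH5 had 74, 78.4 and 78.6 CPM in set 2, against 122, 125 and 123 CPM in puro (log2 -0.68). METTL16, a methyltransferase of structured RNAs, changed by -0.56. Of 18 small RNA processing and silencing genes 9 rose and 5 fell (median 0.17), and on log2(FPKM + 1) 10 rose and 2 fell. DICER1, which cuts hairpin precursors, had 214, 203 and 217 CPM in set 2, against 107, 139.8 and 118 CPM in puro (log2 0.80). TNRC6C, a silencing partner of Argonautes, had 24.6, 23 and 22.3 CPM in set 2, against 8.24, 8.22 and 9.5 CPM in puro (log2 1.43). AGO2, the Argonaute that can cleave targets, had 168, 159 and 157 CPM in set 2, against 212, 236 and 235 CPM in puro (log2 -0.50).

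**Figure D5:**
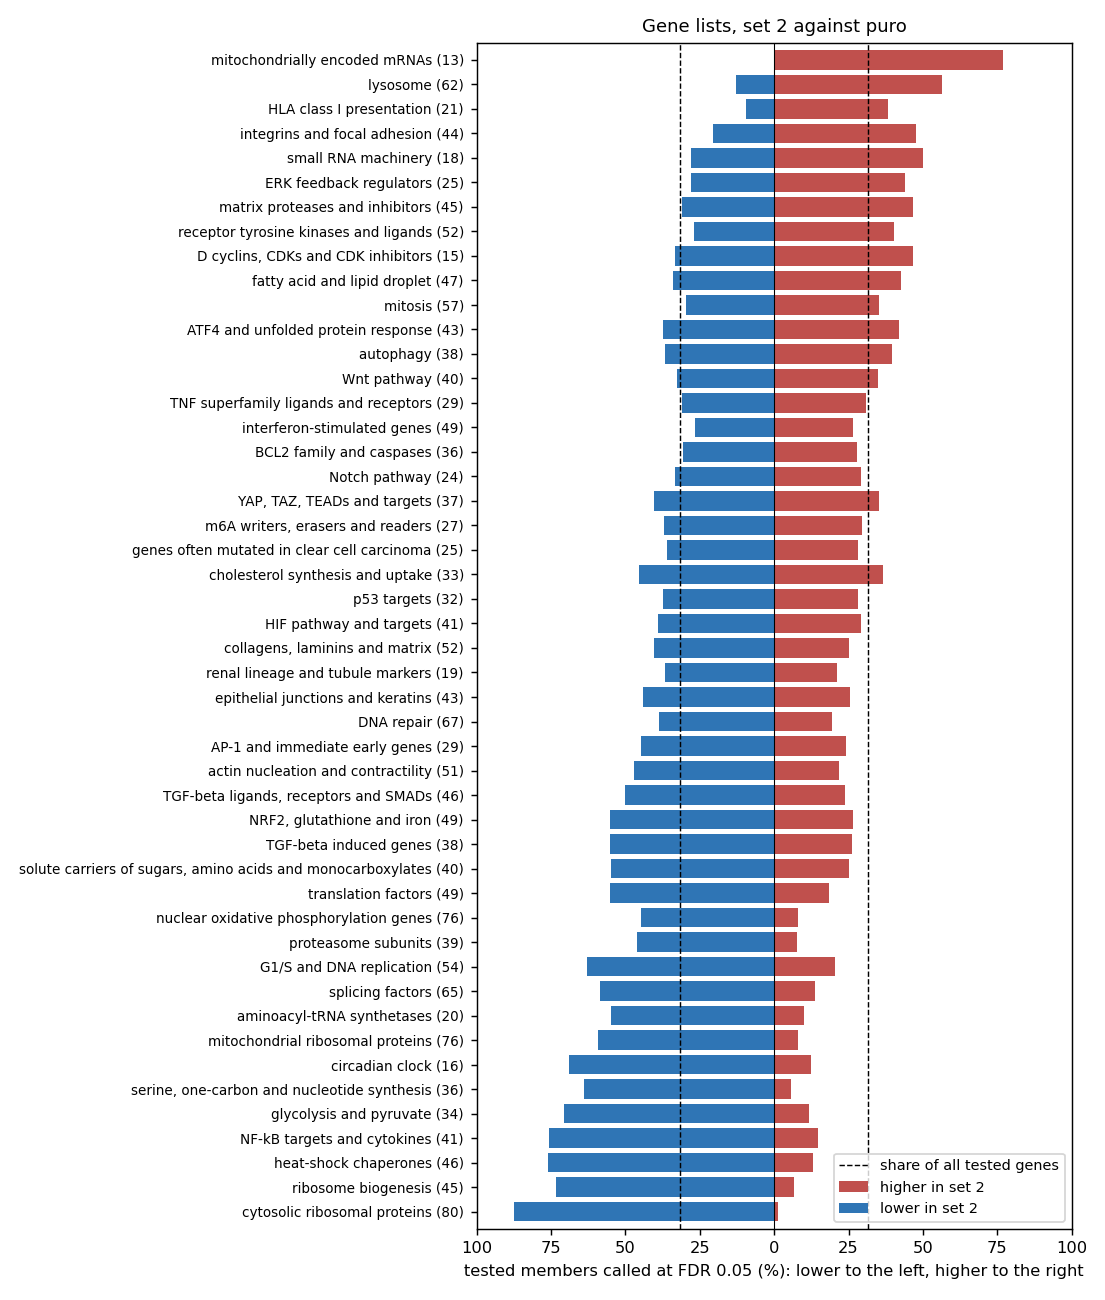
Percent of tested members called lower (blue, to the left) and higher (red, to the right) in set 2 for the 48 gene lists (rows, with the number tested), with dashed lines at the shares over all tested genes, 31.8% lower and 31.6% higher. Cytosolic ribosomal proteins (87.5% lower) stand at the bottom and mitochondrially encoded mRNAs (76.9% higher) at the top.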

How the data were processed

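Polyadenylated RNA of 786-O cells was sequenced. Per the submitters' processing notes, fastp 0.23.2, STAR 2.7.10a, featureCounts and DESeq2 were used with hg38; the sources used here give no strand setting, annotation or handling of multi-mapping reads. The deposited table holds read counts per gene and FPKM values, both made by the authors. Counts of 3 set 2 and 3 puro columns were fitted with edgeR 4.0.16 (R 4.3.3): filterByExpr, TMM factors, and a quasi-likelihood test with Benjamini-Hochberg adjustment at 0.05 over 13138 genes. CPM values of genes are TMM-scaled, with mean ± SD over 3 columns, while marker sums use plain library totals. Totals of at least 33821216 counts set the precision, and intervals cover the spread between columns.

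Alternatives used other scalings and filters, DESeq2 1.42.0, limma 3.58.1 (voom, and log2 of FPKM plus a pseudocount of 1 or 0.1), all 9 columns, a replicate block, and each column left out. Named genes are the targeted family, pathway genes, the 15 largest changes each way, and up to 3 per list and direction. The largest changes and the list members were taken from called genes with a mean of at least 5 CPM. Only the 15 largest changes each way also had to have arms that did not overlap. Exceptions are stated. The members, the 48 lists and the naming rule were chosen with earlier results of these data known. Of 20020 symbols, 18795 matched GENCODE v29 and 18269 had a 3' UTR. The script was tested on simulated data.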

Additional observations from a re-analysis of the deposited data

How the results depend on the processing

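The number of genes called was between 7034 (FDR 0.01) and 8418 (library totals) in the alternatives run on all genes, against 8333 in the main analysis, and no called gene changed sign in any of them. With one column left out it was 7644 to 8254. DESeq2 called 8058, limma-voom 8351 and the fit of all 9 columns 7989. On log2(FPKM + 1), limma called 304 genes higher and 245 lower by at least 2-fold, in place of 768 and 714; the pseudocount shrinks the folds of low genes by construction. With genes holding any of the 4 words left out, chosen after seeing the data, 480 genes were higher by at least 2-fold, from fewer genes counted. IGF2BP1, near the detection limit, took the other sign with limma-voom (-0.052), without shIGF2BP2 replicate 1 (-0.33), without puro replicate 2 (-0.12) and without puro replicate 3 (-0.03), its log2 fold changes with one column left out running from -0.33 to 0.33. Of 48 list medians, 40 kept their sign under all 5 other scalings. The labels give both arms replicate numbers, but same-numbered columns did not deviate together (correlations of 0.0156, -0.0276 and 0.0487), and with the replicate block 8209 genes were called, 4101 higher and 4108 lower. The arms are 3 columns each, with 1 hairpin set, so effects of IGF2BP2 loss and of the hairpin itself cannot be told apart.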

Other observations

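The following groups are given beside the shares over all tested genes, 31.6% higher and 31.8% lower. Of 16 tested circadian clock genes 11 fell and 2 rose (median -0.26), against 7 falls and 2 rises with library totals (median -0.16). PER1, a repressor of the clock, had 5.59 ± 0.203 CPM in set 2 and 15.3 ± 1.64 CPM in puro, and its relative PER3 had 21.7 ± 1.27 CPM in set 2 and 53 ± 0.719 CPM in puro. The activator BMAL1 had 15.7 ± 1.53 CPM in set 2 and 9.10 ± 0.696 CPM in puro (SD, n = 3 each). The Wnt list gave 14 rises and 13 falls among 40 (35% higher and 32.5% lower, near the shares over all genes; median 0.09), against 20 rises and 9 falls with library totals (median 0.19). Its non-canonical ligands WNT5A and WNT5B rose. WNT5A had 80.4, 73.5 and 72.9 CPM in set 2, against 23.6, 25.2 and 23.8 CPM in puro (log2 1.64). WNT5B had 31.9, 34.1 and 34.5 CPM in set 2, against 11.3, 10.6 and 12.7 CPM in puro (log2 1.53), while the transcriptional partners TCF7 and TLE1 changed by -1.28 and -1.30. Notch genes gave 8 falls and 7 rises among 24, also near those shares (median 0.21), and 7 falls and 8 rises with library totals, ADAM10, a protease that cuts Notch, having 108 ± 2.50 CPM in set 2 and 232 ± 13.2 CPM in puro (SD, n = 3 each). Of 19 renal lineage and tubule genes 7 fell and 4 rose (36.8% lower and 21.1% higher; median -0.13). HAVCR1, an injury marker of the proximal tubule, had 49.4 ± 1.85 CPM in set 2 and 147 ± 9.15 CPM in puro (log2 -1.57).

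Interferon-stimulated genes were evenly split, 13 of 49 rising and 13 falling, with a median of -0.03, against 17 rises and 11 falls with library totals (median 0.07). SAMD9L, a restriction factor, rose by 1.36 and IFI44 by 1.24. Antigen presentation genes rose in 8 of 21 members and fell in 2 (median 0.12), and CD274, which encodes PD-L1, had 66.4, 60.0 and 67.5 CPM in set 2, against 28, 27.5 and 32.2 CPM in puro (log2 1.14). Genes of the unfolded protein response and ATF4 gave 18 rises and 16 falls among 43 (median 0.07), with SEL1L, a factor of protein disposal from the endoplasmic reticulum, at 0.96 and ATF3, a stress-induced factor, at -1.57. The BCL2 and caspase list gave 11 falls and 10 rises among 36 (30.6% and 27.8%, near the shares over all tested genes). MCL1, an anti-apoptotic protein, had 429, 409.9 and 443 CPM in set 2, against 225, 228 and 231 CPM in puro (log2 0.91), while the apoptosis promoter BMF had 8.99, 10.5 and 10.2 CPM in set 2, against 49.2, 52.3 and 48 CPM in puro (log2 -2.33). The BCL2 and caspase list had a median of -0.04, and with library totals 8 falls and 12 rises (median 0.06). TNF superfamily genes gave 9 rises and 9 falls among 29 (31% each, near the shares over all tested genes, median 0.12). The p53 targets gave 9 rises and 12 falls among 32 (median 0.05), which turned to 14 rises and 10 falls with library totals (median 0.15). Genes often mutated in clear cell carcinoma gave 7 rises and 9 falls among 25, with a median of -0.0084, against 9 rises and 7 falls with library totals (median 0.09).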
